A study of Mus musculus with 2 samples.

Results

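The genes for the mouse Fc receptors and the small adaptor chains that signal for them were followed through a single-cell RNA sequencing data set of mouse bone marrow. The 7 genes were taken by name: the IgG receptors Fcgr1, Fcgr2b, Fcgr3 and Fcgr4, the IgE receptor alpha chain Fcer1a, and the adaptors Fcer1g and Tyrobp. They are 7 of the 13211 genes listed in at least 1 of the count tables, and all 7 were listed in both.

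The study deleted type I collagen in cells marked by Fsp1 (the gene S100a4) and examined the marrow of the resulting mice. Marrow was flushed from femurs and tibias of mice 2 months of age, and live cells were sorted and sequenced with droplet 3′ chemistry that counts unique molecular identifiers (UMIs). The Col1a1fspKO library came from Fsp1-Cre;Col1a1flox/flox mice, in which the S100a4 promoter drives Cre recombinase that removes loxP-flanked exons of Col1a1. The WT library came from littermates without Cre that carried the same floxed Col1a1 alleles. Each genotype was 1 library, a pool of 2 mice. Genotype therefore has no replicates and was not tested. All intervals are 95% intervals that cover counting error only, limits beside a count of 0 are 3 counts over the number of cells and concern cells with a UMI, not cells that express the gene, and differences between mice cannot be told apart from differences between genotypes. The Cre driver is not confined to fibroblasts, and S100a4 is among the 10 leading genes of the monocyte cluster 0 described here.

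Fc receptors bind the constant part of antibodies and link antibody to the response of the cell that carries the receptor. Fcgr1, Fcgr3, Fcgr4 and Fcer1a have no signaling tail of their own and depend on Fcer1g, whose cytoplasmic immunoreceptor tyrosine-based activation motif recruits the kinase Syk. Fcgr2b carries an inhibitory motif instead and is the only inhibitory IgG receptor of the mouse. Tyrobp (DAP12) is a sister adaptor of Fcer1g that serves other receptors, such as Siglech, Trem2 and several natural killer cell receptors.

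The 2 libraries had similar depth. The Col1a1fspKO library held 1309 cells with 8647722 UMIs (median 4954 per cell) and the WT library 1169 cells with 8624469 UMIs (median 5534), and they shared 2 cell barcodes. Col1a1 itself had 3 UMIs in Col1a1fspKO against 0 in WT, and its 3′ tags lie outside the deleted exons, so the deletion cannot be checked in these cells. Clustering without the 7 genes gave 15 clusters that fell into 8 marker-named classes. Of Neutrophil-like cells there were 515 in Col1a1fspKO against 428 in WT, of Mono/Macro-like cells 267 and 276, of B cells-like 248 and 222, Erythrocytes-like 95 and 94, Progenitor-like 74 and 69, T/NK cells-like 58 and 32, Dendritic (plasmacytoid)-like 43 and 30, and Eosino/Baso-like 9 and 18. The last class carried basophil genes such as Prss34 and Mcpt8, while in this class the eosinophil gene Prg2 had 0 UMIs in both libraries and Epx had 2 in Col1a1fspKO and 0 in WT, so its name holds for basophils. The 4 neutrophil clusters are named by number and leading gene. Cluster 4 is led by Fcnb, cluster 1 by Orm1 and Ltf, cluster 2 by Mmp8 and Mmp9, and cluster 8 by Retnlg. Cluster 8 held 106 cells in Col1a1fspKO but 32 in WT, and this mix bears on every neutrophil average below.

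The genes of the low-affinity IgG receptors lie side by side on chromosome 1 (build GRCm38, which is mm10). Fcgr2b spans chr1:170960558-170976071, Fcgr4 chr1:171018926-171029761 and Fcgr3 chr1:171051169-171065915. The gap between Fcgr2b and Fcgr4 is 42855 bp and that between Fcgr4 and Fcgr3 is 21408 bp, with no other gene of the count tables between them. Fcer1g (chr1:171229572-171234349) and Fcer1a (chr1:173221269-173227232) lie farther along the same chromosome. Fcgr1 lies at chr3:96282909-96293969, and Tyrobp at chr7:30413782-30417582, 130 bp from Hcst, the gene of the adaptor DAP10.

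RefSeq start-site windows of 300 bases (250 before and 50 after the start, GRCm38.p6) were at hand for 6 of the 7 genes. Only 1 window was taken per gene, so any further start sites of these genes were not searched. The window of Fcgr3 lies inside the span given above for that gene, not at its 5′ end. They are shown for the 4 IgG receptors because the classes with the highest level differed between Fcgr1, Fcgr3 and Fcgr4, and Fcgr2b was shared with B cells. Capitals mark CTTCCTC, the reverse complement of GAGGAAG, the core of sites for PU.1, a transcription factor of myeloid and B cells. The motif was chosen after the sequences had been seen and was searched on both strands.
Fcgr1 (chr3:96293920-96294219, - strand): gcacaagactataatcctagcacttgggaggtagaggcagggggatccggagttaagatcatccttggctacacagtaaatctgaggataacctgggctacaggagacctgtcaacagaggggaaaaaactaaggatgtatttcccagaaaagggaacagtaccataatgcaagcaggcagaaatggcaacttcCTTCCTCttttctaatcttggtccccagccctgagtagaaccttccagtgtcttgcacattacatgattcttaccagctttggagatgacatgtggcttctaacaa
Fcgr3 (chr1:171059354-171059653, - strand): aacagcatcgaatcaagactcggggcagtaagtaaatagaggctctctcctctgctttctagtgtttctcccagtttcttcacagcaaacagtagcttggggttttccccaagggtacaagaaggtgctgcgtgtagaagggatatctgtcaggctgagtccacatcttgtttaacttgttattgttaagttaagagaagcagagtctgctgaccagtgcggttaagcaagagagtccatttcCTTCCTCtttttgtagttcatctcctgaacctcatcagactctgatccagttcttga
Fcgr4 (chr1:171018676-171018975, + strand): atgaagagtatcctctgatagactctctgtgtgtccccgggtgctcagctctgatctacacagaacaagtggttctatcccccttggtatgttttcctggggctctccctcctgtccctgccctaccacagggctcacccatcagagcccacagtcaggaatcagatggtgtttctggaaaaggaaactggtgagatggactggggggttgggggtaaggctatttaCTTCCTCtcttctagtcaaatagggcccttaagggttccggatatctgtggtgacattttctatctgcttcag
Fcgr2b (chr1:170976022-170976321, - strand): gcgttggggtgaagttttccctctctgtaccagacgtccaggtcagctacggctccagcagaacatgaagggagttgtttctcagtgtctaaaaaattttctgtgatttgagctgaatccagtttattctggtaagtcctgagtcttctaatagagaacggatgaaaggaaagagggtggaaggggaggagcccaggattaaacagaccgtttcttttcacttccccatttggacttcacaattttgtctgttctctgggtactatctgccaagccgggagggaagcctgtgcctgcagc
The motif stood at bases -56 to -50 from the start in Fcgr1, at -7 to -1 in Fcgr3 and at -23 to -17 in Fcgr4, each time in the reverse orientation. The windows of Fcgr2b, Fcer1g and Fcer1a held no match. Of all 32851 RefSeq windows of this length, 13.6% hold the motif on either strand. The GATA motif AGATAAG, which 3.04% of all windows hold, was in none of the 6. A match of letters is not a measured binding site.

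Levels are given as UMIs per 1000000 UMIs (CPM) of all cells of a class, and a value in brackets is its interval. The plot of levels by class shows receptors that were highest in different cell classes, and adaptors at high levels in neutrophils, monocytes, basophils and plasmacytoid cells.

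**Figure D1:**
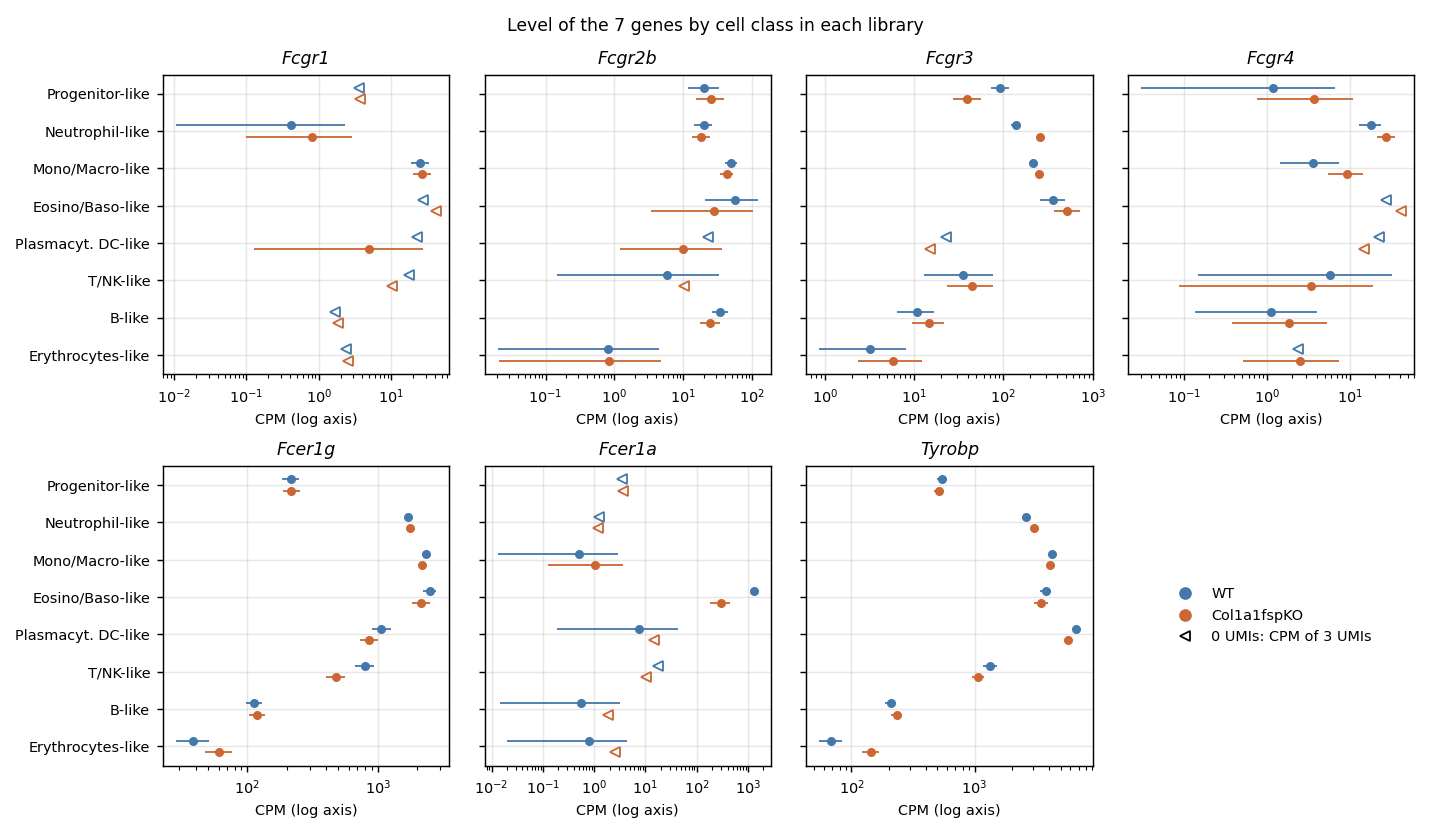
CPM on a log axis of each of the 7 genes in the 8 cell classes, WT in blue and Col1a1fspKO in orange; bars are 95% Poisson intervals and open triangles mark 0 UMIs, drawn at the CPM that 3 UMIs would give. Fcgr1 stood out in Mono/Macro-like cells, Fcer1a in Eosino/Baso-like cells, and Tyrobp reached 5763 and 6693 CPM in plasmacytoid cells.

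Fcgr1 encodes the high-affinity IgG receptor. It was a monocyte transcript in both libraries: Mono/Macro-like cells held 94.6% of its 56 UMIs in Col1a1fspKO against 98.0% of its 50 UMIs in WT. The level in that class was 26.97 CPM (20.2 to 35.3) in Col1a1fspKO against 25.2 CPM (18.7 to 33.4) in WT. Within the class it was concentrated in cluster 0, led by Wfdc17, with 43.3 and 43.7 CPM, against 17.8 and 6.88 CPM in cluster 11, led by Klf4, and 7.04 and 5.75 CPM in cluster 9, led by Ass1. In Col1a1fspKO the interval of cluster 11 (7.69 to 35.1) overlapped that of cluster 0 (31.0 to 58.7), and in WT it did not. Neutrophil-like cells gave 2 UMIs in Col1a1fspKO against 1 in WT. B cells-like, T/NK cells-like, Erythrocytes-like, Progenitor-like and Eosino/Baso-like cells gave 0 in both, which for the 95 erythroid cells of Col1a1fspKO allows a share of cells with a UMI of up to 3.16%.

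The ratio of Fcgr1 between the libraries in Mono/Macro-like cells was 1.07 (0.711 to 1.61). Ratios are Col1a1fspKO over WT throughout, and a ratio past 1.5-fold in either direction with at least 50 UMIs over both libraries is the size rule used here. In Mono/Macro-like cells 6.95% of all 5728 genes with that many UMIs passed it, and 0 of the 5 genes of the set with that many UMIs there did.

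Fcgr3 encodes the activating low-affinity IgG receptor and was the most broadly detected of the 4 IgG receptors. Its highest class was Eosino/Baso-like in both libraries, with 519 CPM (365 to 715; 37 UMIs in 9 cells) in Col1a1fspKO against 359 CPM (256 to 491; 39 UMIs in 18 cells) in WT. With a coarser clustering (resolution 0.4), or with single cells named by marker score, Mono/Macro-like cells were the highest class in both libraries. Neutrophil-like cells had 256 CPM (237 to 277) in Col1a1fspKO against 138 CPM (123 to 153) in WT, and Mono/Macro-like cells had 252 CPM (230 to 275) and 214 CPM (194 to 235). Levels then dropped in T/NK cells-like (44.4 and 35.0 CPM), B cells-like (14.7 and 10.7 CPM) and Erythrocytes-like cells (5.88 and 3.18 CPM). Plasmacytoid cells gave 0 Fcgr3 UMIs in both libraries, in 43 and 30 cells, which allows shares of up to 6.98% and 10.0%.

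Over the neutrophil clusters, Fcgr3 increased in the same order in each library. From cluster 4 through 1 and 2 to 8 it was 103, 189, 355 and 597 CPM in Col1a1fspKO, and 79.8, 124, 230 and 437 CPM in WT. The 7 genes were left out of the clustering, so this order was not built in by Fcgr3 itself. Cluster 8 and the Eosino/Baso-like cluster 13 stood at the top of the order over all clusters in both libraries, with intervals that overlapped. The interval of cluster 13 also overlapped those of the monocyte cluster 0 and of cluster 2 in both libraries. In WT the interval of cluster 8 overlapped that of cluster 0 as well. The plot of the progenitor and neutrophil clusters shows the rise in CPM together with that of the adaptors. Median depth fell from 8375.5 and 8587.5 UMIs per cell in cluster 4 to 2980 and 3264.5 in cluster 8 (Col1a1fspKO and WT). CPM can therefore increase where the UMIs per cell do not. From cluster 4 to 8 the median Fcgr3 UMIs per cell were 1, 1, 1 and 2 in Col1a1fspKO and 0, 0, 1 and 1 in WT.

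**Figure D2:**
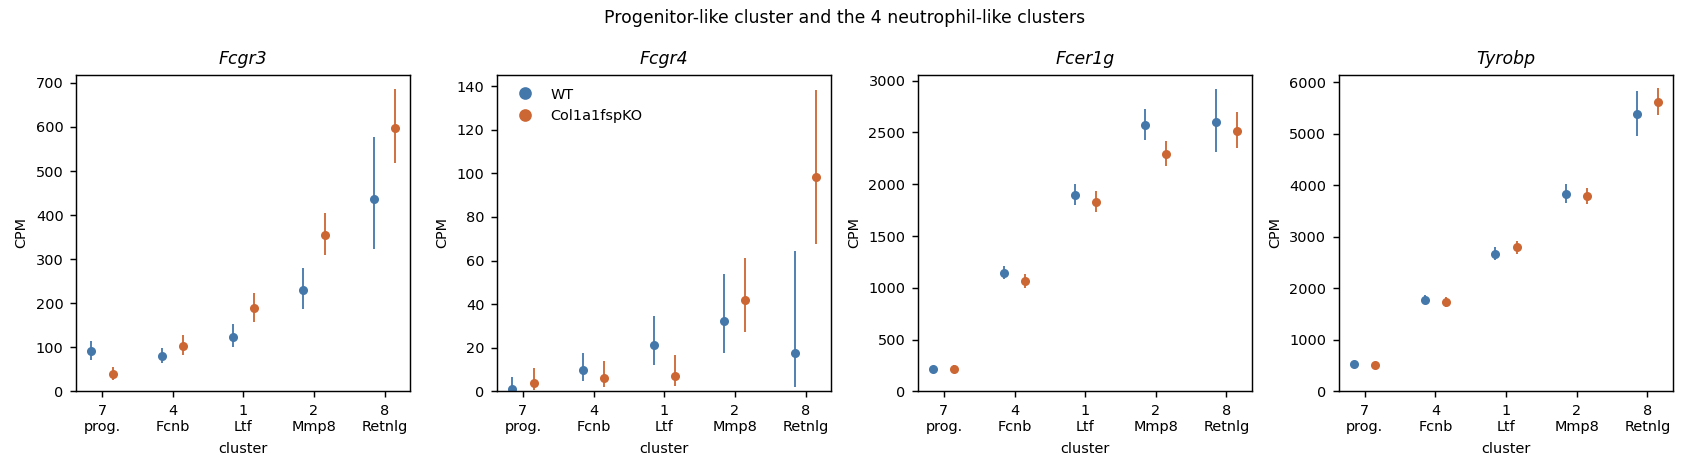
CPM of Fcgr3, Fcgr4, Fcer1g and Tyrobp in the Progenitor-like cluster 7 and the neutrophil clusters 4, 1, 2 and 8 (a leading gene under each number), WT in blue and Col1a1fspKO in orange, with 95% Poisson intervals. The CPM of Fcgr3 and Tyrobp increased from cluster 4 to cluster 8 in both libraries. Fcgr3 of Col1a1fspKO lay above WT in each of the 4 neutrophil clusters but below it in cluster 7.

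Between the libraries, Fcgr3 in Neutrophil-like cells had a ratio of 1.86 (1.63 to 2.13), and it and Fcgr4 were the genes past 1.5-fold among the 5 of the set with at least 50 UMIs there. In that class 12.7% of all 4712 genes passed in either direction, 4.48% upward and 8.21% downward. The ratio depended on the weight of the clusters. With the 4 clusters given equal weight the levels were 311 and 218 CPM and the ratio 1.43. Inside the clusters the ratio was 1.29 (0.947 to 1.76) in cluster 4, 1.52 (1.16 to 2.01) in cluster 1, 1.54 (1.21 to 1.97) in cluster 2 and 1.37 (0.995 to 1.91) in cluster 8. The share of genes past 1.5-fold in those clusters was 7.93%, 7.01%, 8.37% and 15.1%.

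The share of Neutrophil-like cells with an Fcgr3 UMI was 64.5% in Col1a1fspKO against 49.5% in WT. After every cell was thinned to 2500 UMIs it was 47.2% and 27.3%, against 0% and 1.06% in thinned Erythrocytes-like cells, whose median depth (9422 and 11793.5 UMIs) was above that of Neutrophil-like cells (3903 and 4524.5).

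The ratio was also above 1 in the monocyte clusters and in Eosino/Baso-like cells, with an interval above 1 in cluster 0. It was 1.22 (1.04 to 1.43) in the monocyte cluster 0, 1.12 (0.812 to 1.54) in cluster 9, 1.21 (0.802 to 1.85) in cluster 11 and 1.44 (0.895 to 2.32) in the Eosino/Baso-like cells. Fcgr3 was thus higher in Col1a1fspKO in each of these 8 clusters of neutrophils, monocytes and Eosino/Baso-like cells. This set leaves out the Mpo-led Progenitor-like cluster 7, where Fcgr3 was lower in Col1a1fspKO. Of the 328 genes with at least 50 UMIs in each of the 8 clusters, 14 (4.27%) were higher in Col1a1fspKO in all 8, a count made after the Fcgr3 values had been seen. The clusters come from the same pair of libraries and are not replicates.

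Progenitor-like cells, led by Mpo and Elane, went the other way. They had 39.6 CPM of Fcgr3 (27.1 to 55.8; 32 UMIs) in Col1a1fspKO against 91.4 CPM (72.1 to 114; 77 UMIs) in WT, with a ratio of 0.433 (0.277 to 0.662), where 10.1% of all genes passed 1.5-fold and 6.28% did so downward. The makeup of this cluster also differed between the libraries. The summed progenitor markers were at 6670 CPM in Col1a1fspKO against 10231 CPM in WT, the summed neutrophil markers at 30896 and 23093 CPM, and the summed Eosino/Baso markers at 149.6 and 466 CPM, the last with 0 and 206 UMIs of Prg2, an eosinophil granule gene. The summed monocyte markers were at 387 and 463 CPM. Cells with at least 1 monocyte marker UMI (49 and 50 cells) had 42.1 and 109 CPM of Fcgr3, and cells with none (25 and 19) had 33.5 and 27.9 CPM. The part of this makeup in the ratio was not tested. After thinning to 2500 UMIs per cell, 8.11% and 11.6% of Progenitor-like cells kept an Fcgr3 UMI.

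Fcgr4 encodes the activating receptor for IgG2 subclasses. It was sparse, with 97 UMIs in Col1a1fspKO against 54 in WT, and 71.1% and 79.6% of these fell in Neutrophil-like cells. The level there was 27.7 CPM (21.6 to 35.1) in Col1a1fspKO against 17.9 CPM (12.98 to 24.2) in WT, with a ratio of 1.55 (1.04 to 2.32). With the same UMI minimum per cell in both libraries the log2 ratio went from 0.63 to 0.40, and 11 of the 13 settings run gave a ratio past 1.5-fold.

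The clusters did not share that direction. In the Retnlg-led cluster 8, Fcgr4 had 33 UMIs in 106 cells of Col1a1fspKO (98.5 CPM, 67.8 to 138) and 2 UMIs in 32 cells of WT (17.8 CPM, 2.16 to 64.5), a ratio of 5.52 with the wide interval of 1.41 to 47.5. In cluster 1 it had 5 UMIs in Col1a1fspKO against 16 in WT, with a ratio of 0.335 (0.0960 to 0.958). In cluster 2 the levels were 41.9 and 32.2 CPM and in cluster 4 they were 5.99 and 9.98 CPM, with intervals that overlapped. With equal weight for the clusters the ratio was 1.89. Cells of cluster 8 with an Fcgr4 UMI were 27.4% in Col1a1fspKO against 6.25% in WT, or 24.5% and 3.12% after thinning. After thinning, T/NK cells-like cells had 1.72% and 3.12%, Erythrocytes-like cells 2.11% and 0%, and 0 plasmacytoid cells had one, so the share of cluster 8 in WT was not above that of T/NK cells-like cells.

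Among monocytes Fcgr4 was mostly in cluster 0, with 16 UMIs in Col1a1fspKO against 7 in WT, while cluster 11 had 0 in both. Eosino/Baso-like and plasmacytoid cells also had 0 in both libraries.

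Fcgr2b, the inhibitory receptor, was spread over monocytes, B cells, progenitors and neutrophils. Mono/Macro-like cells had 42.7 CPM (34.1 to 52.9) in Col1a1fspKO against 49.5 CPM (40.1 to 60.4) in WT, and B cells-like cells had 24.5 CPM (17.5 to 33.4) and 34.4 CPM (26.3 to 44.2). Progenitor-like cells had 24.7 and 20.2 CPM and Neutrophil-like cells 18.1 and 19.6 CPM. Eosino/Baso-like cells had 2 UMIs and 6 UMIs, too few to place among these. Within B cells the Ms4a1-led cluster 6 had 40.8 CPM in Col1a1fspKO against 70.5 CPM in WT, and the Myl4-led cluster 3 had 20.5 and 26.6 CPM, with intervals that overlapped between the libraries in each cluster.

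The ratio of Fcgr2b was 0.864 (0.637 to 1.17) in Mono/Macro-like cells, 0.713 (0.466 to 1.08) in B cells-like cells and 0.923 (0.599 to 1.42) in Neutrophil-like cells, none of them past 1.5-fold. With the mean taken over single cells, the log2 ratio in B cells-like cells went from -0.49 to -0.64, just past 1.5-fold. In B cells-like cells 7.6% of all genes passed. The monocyte cluster 0 had 37 UMIs (39.0 CPM) in Col1a1fspKO against 62 UMIs (63.0 CPM) in WT, with a ratio of 0.619 (0.401 to 0.945), where 8.2% of genes passed. The other monocyte clusters, 9 and 11, had ratios of 1.22 and 1.40 with intervals that held 1. Neutrophil cluster 1 had 15 UMIs in Col1a1fspKO but 5 in WT, a ratio of 3.22 with the wide interval of 1.11 to 11.3.

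Fcgr2b and Fcgr3 share similar extracellular sequence, so reads could have been split between them in counting. A UMI stands for 1 captured transcript end and carries no length factor, but capture can differ between genes. The share of Fcgr2b in the UMIs of both genes is therefore read between cell classes, not against an even split. In B cells-like cells it was 62.5% (49.5 to 74.3) in Col1a1fspKO against 76.3% (65.4 to 85.1) in WT, above the intervals of Neutrophil-like and Mono/Macro-like cells in both libraries. Without the few B cells-like cells that carried over 50 UMIs of the neutrophil gene S100a8, the shares were 83.0% and 86.4%.

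Mono/Macro-like cells had 14.5% (11.7 to 17.6) and 18.8% (15.5 to 22.5), and Neutrophil-like cells had 6.59% (4.85 to 8.72) and 12.5% (9.31 to 16.2). The share fell from 15.7% and 27.3% in cluster 4 to 0.990% and 3.92% in cluster 8, where 2 Fcgr2b UMIs were counted in each library. Progenitor-like cells had 38.5% (25.3 to 53.0) in Col1a1fspKO against 18.1% (10.9 to 27.4) in WT. In Col1a1fspKO this interval overlapped that of B cells-like cells. The share was higher in Col1a1fspKO in progenitors but lower in neutrophils as a class. Neutrophil cluster 1, with 10.2% and 5.10%, did not follow its class.

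Fcer1a encodes the IgE-binding chain of the high-affinity IgE receptor of basophils and mast cells. Eosino/Baso-like cells, led by the basophil proteases Prss34 and Mcpt8, held 91.3% of its 23 UMIs in Col1a1fspKO against 97.3% of its 148 UMIs in WT. Fcer1a is itself among the leading genes of this cluster, although it was not used to build it. The 9 cells of Col1a1fspKO had 21 UMIs, with a lowest, median and highest cell of 0, 3 and 5. The 18 cells of WT had 144 UMIs, with 0, 6.5 and 34. At least 1 UMI was seen in 6 of the 9 and in 15 of the 18 cells.

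The level was 294 CPM (182 to 450) in Col1a1fspKO against 1327 CPM (1119 to 1562) in WT, with a ratio of 0.222 (0.133 to 0.352). In Eosino/Baso-like cells 15.5% of the 483 genes with at least 50 UMIs passed 1.5-fold and 8.9% did so downward. Without the cell richest in Fcer1a of each library, the levels were 255 and 1103 CPM. Ms4a2, the beta chain of the same receptor, had 1135 CPM (902 to 1411) in Col1a1fspKO against 1253 CPM (1051 to 1482) in WT, with a ratio of 0.906, and Prss34, Mcpt8 and Cpa3 had ratios of 0.894, 0.895 and 0.819.

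The marker lists in these cells also differed between the libraries, and in both directions. The summed Eosino/Baso markers were at 64687 CPM in Col1a1fspKO against 73146 CPM in WT, but 2 of them differed more, with Gata2 at 757 and 1207 CPM and Cd200r3 at 449 and 820 CPM. The summed progenitor markers were at 3644 and 2257 CPM, with Mpo at 435 and 203 CPM. The summed neutrophil markers were at 4107 and 10328 CPM and the summed monocyte markers at 799 and 405 CPM. Their part in the Fcer1a difference was not tested, and with 9 cells the class is the smallest of the set.

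The partner chains of Fcer1a in the same cells were nearer to level. Fcer1g had 2173 CPM (1844 to 2543) in Col1a1fspKO against 2506 CPM (2217 to 2822) in WT, with a ratio of 0.867 (0.707 to 1.06). Every Eosino/Baso-like cell of both libraries had at least 1 UMI of Fcer1g and of Tyrobp.

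Fcer1g, the common gamma chain, was counted 9669 times in Col1a1fspKO against 9618 times in WT. Over all cells its level was 1118 and 1115 CPM, a ratio of 1.003. Of all 9725 genes, 5.93% passed 1.5-fold there, 3.0% upward and 2.93% downward. The monocyte cluster 0 had the highest level of any cluster in both libraries, with 2953 CPM (2844 to 3064) and 3088 CPM (2979 to 3200). By class, Mono/Macro-like cells (2204 and 2340 CPM) and Eosino/Baso-like cells were not separated beyond counting error, and Neutrophil-like cells followed with 1780 and 1708 CPM. Plasmacytoid cells had 862 and 1068 CPM, T/NK cells-like 475 and 799 CPM, and Progenitor-like cells 218 and 216 CPM.

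In the neutrophil clusters Fcer1g was 1063, 1828, 2294 and 2517 CPM from cluster 4 through 1 and 2 to 8 in Col1a1fspKO, and 1147, 1899, 2571 and 2605 CPM in WT. Unlike Fcgr3, it was lower in Col1a1fspKO in each of the 4 clusters, with ratios between 0.892 and 0.966, of which the one in cluster 2 (0.824 to 0.966) had an interval below 1. The class ratio of 1.04 (0.998 to 1.09) therefore turned to 0.937 with the clusters weighted equally. Inside the same neutrophil clusters, the ratio of Fcgr3 was thus above 1 and that of Fcer1g slightly below it. The Fcer1g intervals of clusters 4, 1 and 8 held 1, as did the Fcgr3 intervals of clusters 4 and 8. The share of all genes lower in all 4 clusters was not counted. The median Fcer1g UMIs per cell did not increase along the clusters. From cluster 4 through 1 and 2 to 8 they were 10, 8, 8 and 7 in Col1a1fspKO and 10, 8, 9 and 8.5 in WT.

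T/NK cells-like cells were the class in which Fcer1g passed 1.5-fold downward. The ratio was 0.595 (0.466 to 0.758), from 475 CPM (139 UMIs) in Col1a1fspKO against 799 CPM (137 UMIs) in WT, and 12.0% of all genes passed in this class, 3.38% downward. Cells with a UMI of Ncr1, a natural killer cell receptor gene, had 997 CPM (828 to 1190; 22 cells) in Col1a1fspKO against 1186 CPM (979 to 1424; 15 cells) in WT. Cells without one, all of which had a CD3 gene UMI, had 99.9 CPM (36 cells) and 295 CPM (17 cells). In WT, 2 of the 15 cells with an Ncr1 UMI carried over 50 S100a8 UMIs, and in Col1a1fspKO none of the 22 did. After thinning to 2500 UMIs per cell the log2 ratio went from -0.75 to -0.16, and 9 of the 13 settings run gave a ratio past 1.5-fold.

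Tyrobp, the other adaptor, was the most abundant of the 7 genes by UMIs, with 18375 in Col1a1fspKO against 16973 in WT. Its highest class was the plasmacytoid dendritic cells, with 5763 CPM (5436 to 6105) in Col1a1fspKO against 6693 CPM (6259 to 7149) in WT. These cells are led by Siglech, a receptor that signals through Tyrobp, which had 1474 and 1628 CPM there. Mono/Macro-like cells followed with 4096 and 4272 CPM, then Eosino/Baso-like cells with 3462 and 3787 CPM and Neutrophil-like cells with 3071 and 2604 CPM. With single cells named by marker score, Mono/Macro-like cells were the highest class for Tyrobp in both libraries. The Retnlg-led neutrophil cluster 8 reached 5623 and 5389 CPM, close to the monocyte cluster 0 with 5364 and 5444 CPM.

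From cluster 4 through 1 and 2 to 8, Tyrobp increased over 1734, 2800.4, 3798 and 5623 CPM in Col1a1fspKO and over 1784, 2677, 3841 and 5389 CPM in WT. Its median UMIs per cell did not increase steadily, at 14, 12, 13 and 17 in Col1a1fspKO and 15, 12, 14 and 18 in WT. The Neutrophil-like ratio was 1.18 (1.14 to 1.22), while the ratios inside the 4 clusters lay between 0.972 and 1.05 and the equal-weight ratio was 1.02. In plasmacytoid cells the ratio was 0.861 (0.788 to 0.941) and in Mono/Macro-like cells 0.959 (0.930 to 0.989), none past 1.5-fold. In plasmacytoid cells 11.7% of all genes passed.

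The balance of the adaptors set plasmacytoid cells apart. Tyrobp made up 87.0% (85.1 to 88.8) of the UMIs of both adaptors there in Col1a1fspKO against 86.2% (84.0 to 88.3) in WT, or 6.69 and 6.27 Tyrobp UMIs per Fcer1g UMI. In every other cluster with at least 50 UMIs of the pair in each library, the ratio lay between 1.41 and 2.50, as the plot of the adaptor balance shows. Within the neutrophils it moved from 1.63 and 1.55 in cluster 4, over 1.53 and 1.41 in cluster 1, to 2.23 and 2.07 in cluster 8. In the main clustering the plasmacytoid cells are thus the class with most Tyrobp and no Fcgr3 or Fcgr4 UMI.

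**Figure D3:**
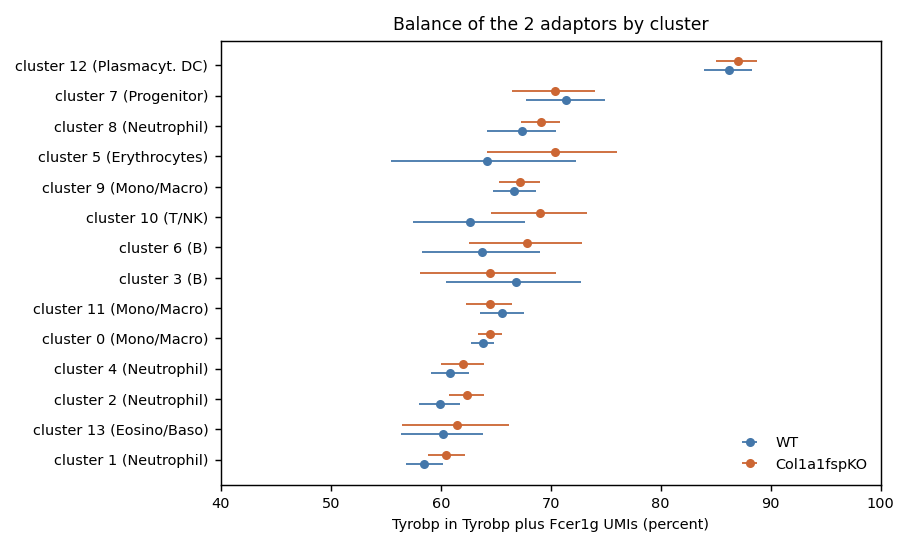
Tyrobp as a percent of Tyrobp plus Fcer1g UMIs in each of 14 clusters (class in brackets), WT in blue and Col1a1fspKO in orange, with 95% Clopper-Pearson intervals; the axis starts at 40. The plasmacytoid cluster 12 lies at 87.0% and 86.2%, apart from all others in both libraries.

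In the B cell cluster 6 and in Erythrocytes-like cells, part of the adaptor signal lay in cells that also held neutrophil RNA. In T/NK cells-like cells the highest S100a8 count in a cell was 21 UMIs in Col1a1fspKO and 1301 in WT. In the B cell cluster 6, the 13 cells of Col1a1fspKO with over 50 S100a8 UMIs held 170 of the 224 Tyrobp UMIs, and the 12 such cells of WT held 146 of 206. Erythrocytes-like cells had Tyrobp ratios of 2.10 (1.61 to 2.75) and Fcer1g ratios of 1.58 (1.08 to 2.33), both past 1.5-fold in a class where 9.87% of genes passed and 3.76% did so upward. There, 7 cells of Col1a1fspKO with over 50 S100a8 UMIs held 93 of the 171 Tyrobp UMIs and 3 cells of WT held 23 of 86. Without them the levels of Tyrobp were 76.3 and 52.3 CPM and those of Fcer1g 36.2 and 29.0 CPM.

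Receptor and adaptor were mostly detected in the same cell. All 38 cells with an Fcgr1 UMI in Col1a1fspKO and all 43 in WT also had Fcer1g. For Fcgr3 the share was 98.5% and 97.5%, for Fcgr4 96.5% and 100%, and for Fcer1a 100% and 89.5%. For Fcgr2b, which does not need the chain and is also made by B cells, it was 83.6% and 79.8%. Nearly every myeloid cell had an Fcer1g UMI, so these shares describe the cells in which each receptor was found.

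Over the 8 classes, 26 ratios of the 7 genes rested on at least 50 UMIs, and 7 of them passed 1.5-fold, 4 upward and 3 downward. The background share in the classes ranged from 6.95% to 15.5%. The plot of the ratios shows that the adaptors stayed within 1.5-fold in every class but T/NK cells-like and Erythrocytes-like.

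**Figure D4:**
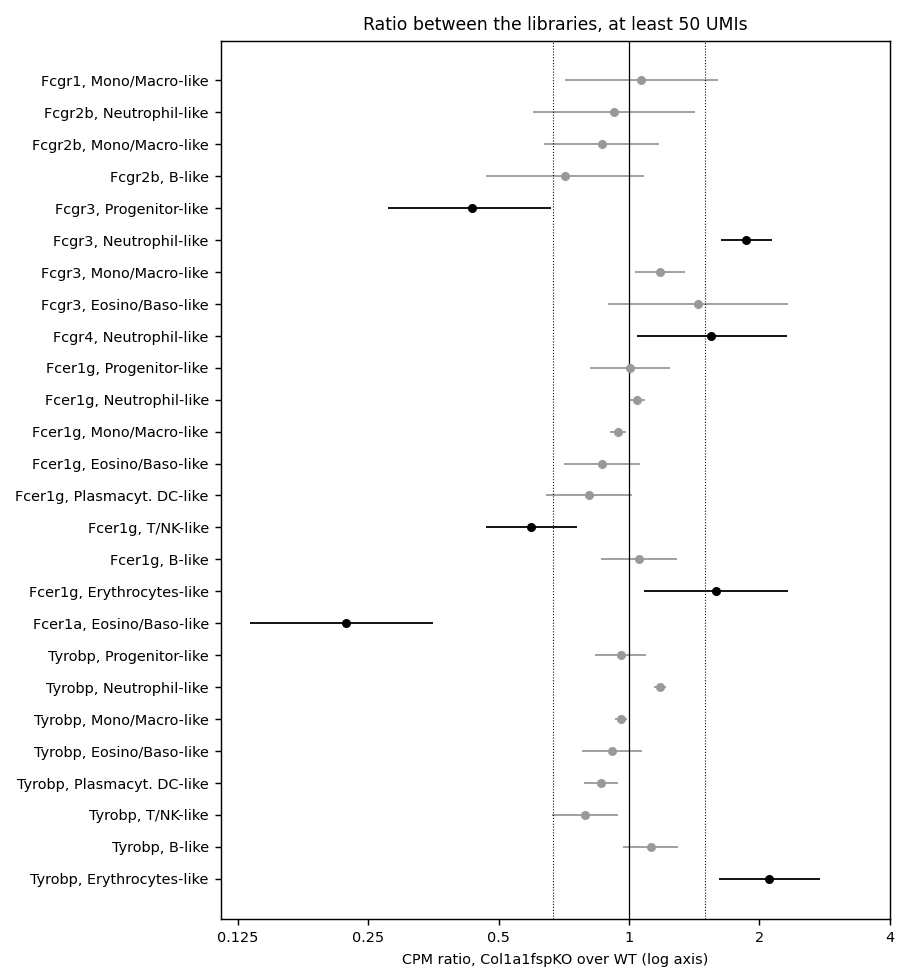
Ratio of CPM, Col1a1fspKO over WT, on a log axis, for each gene and class with at least 50 UMIs over both libraries, with 95% binomial intervals for counting error; black points are past 1.5-fold (dotted lines). Fcer1a in Eosino/Baso-like cells at 0.222, Fcgr3 in Progenitor-like cells at 0.433 and Tyrobp in Erythrocytes-like cells at 2.10 lie farthest out.

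In all, 6 lists of 54 further genes of the same pathways were examined, of which 50 were listed. Over all cells 46 had at least 50 UMIs, and 5 of them passed 1.5-fold upward and 1 downward, where 3.0% of all genes passed upward and 2.93% downward, with a median log2 ratio of 0.11 against -0.04 for all genes. Among other Fc receptors, 0 of 7 passed. Fcrla and Fcmr, both expressed by B cells, had 301 and 299 CPM and 112 and 103 CPM in B cells-like cells, and Fcgrt, the neonatal Fc receptor, had its highest level in Mono/Macro-like cells with 43.8 and 55.1 CPM.

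In Neutrophil-like cells 29 of the pathway genes had at least 50 UMIs, and 4 passed upward and 1 downward, where 4.48% of all genes passed upward and 8.21% downward, with a median log2 ratio of 0.13 against -0.09 for all genes of the class. Of the receptors that use Fcer1g, 3 of 4 were higher: Clec4e (Mincle) had 44.6 and 26.7 CPM, Clec4d 33.0 and 13.8 CPM, and Cd300ld 16.5 and 6.25 CPM. Of the receptors that use Tyrobp, 1 of 4 was higher, Cd300lb with 43.4 and 23.4 CPM. Among the leading genes of cluster 8 is Clec4d, and these class averages hold the same difference in cluster mix as those of Fcgr3.

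Among kinases and signal carriers, 0 of 10 were higher and 1 was lower. Card9, the adaptor that links Syk to NF-kappaB, had 9.24 CPM in Col1a1fspKO against 27.9 CPM in WT, with a ratio of 0.331 (0.197 to 0.538). It was also lower in Mono/Macro-like cells, with 15.3 and 34.5 CPM and a ratio of 0.442 (0.278 to 0.690). There, 31 pathway genes had enough UMIs, 0 passed upward and 2 downward (3.39% of all genes of the class passed downward), the other being Clec4e at 15.8 and 23.7 CPM (ratio 0.666, 0.408 to 1.07). Clec4e thus leaned in opposite directions in neutrophils and monocytes, although its monocyte interval held 1.

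Inhibitory phosphatases and receptors had 0 of 10 past 1.5-fold in Neutrophil-like cells and 0 of 9 in Mono/Macro-like cells. Pirb, the paired Ig-like inhibitory receptor, was highest in Neutrophil-like cells with 264 and 254 CPM. Outside these classes only some genes past 1.5-fold are named. Hcst had 743 and 369 CPM in Eosino/Baso-like cells (ratio 2.02), where 15.5% of all genes passed. Lat2, a linker of Fc receptor signaling, had 144 and 318 CPM in plasmacytoid cells (ratio 0.454), where 11.7% passed. Inhibitory genes also passed, 1 upward in B cells-like cells and 1 downward in Progenitor-like cells. A receptor that uses Tyrobp passed upward in Progenitor-like cells. Of all genes 7.6% and 10.1% passed in these classes. Ncr1, Klrk1 and Cd247 passed upward over all cells with ratios of 1.94, 1.78 and 1.95, and T/NK cells-like cells, the class where each was highest, numbered 58 in Col1a1fspKO against 32 in WT.

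The genes most like each of the 7 except Fcer1a were found by Pearson's r of log2(CPM + 10). It was taken over the 30 profiles of 15 clusters in both libraries, among 6167 genes. Fcer1a was not searched because it had 23 UMIs in Col1a1fspKO, under the minimum of 50 UMIs in each library. The profiles share libraries and depth, so r is given as a description. For Fcgr1 they were Ms4a8a (0.962), Lrp1 (0.949) and Cx3cr1 (0.923), and for Fcgr4 C5ar1 (0.896), Slfn4 (0.894) and Il1rn (0.893). For Fcgr3 they were Lilrb4a (0.937), Rin3 (0.931) and Aldoa (0.911). Fcer1g and Tyrobp were each other's closest gene (0.968), followed for both by Serf2 and Anxa2. Fcgr2b had no close match, with Mtpn at 0.741, Ssh2 at 0.716 and Rel at 0.711.

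Over all cells the ratio was 0.924 (0.820 to 1.04) for Fcrla, 0.845 (0.694 to 1.03) for Fcgr2b, 1.79 (1.27 to 2.55) for Fcgr4 and 1.40 (1.28 to 1.52) for Fcgr3 along chromosome 1. The intervals of the neighbors Fcrla and Fcgr2b overlapped, as did those of Fcgr4 and Fcgr3, and those of Fcgr2b and Fcgr4 did not. Ratios over all cells carry the difference in cell mix between the libraries. Inside neutrophil clusters Fcgr4 went both ways, at 0.335 in cluster 1 and 5.52 in cluster 8. Hcst, next to Tyrobp, had a ratio of 1.29.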

How the data were processed

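The authors aligned the reads and made the UMI count tables with Cell Ranger (version not given in the sources used here), against mm10 per the submitters' processing notes, and deposited 1 table of UMI counts (genes by cells) per library. Their filter kept cells with 200 to 7000 genes and under 10% mitochondrial counts, and the deposited cells lie within it. A gene missing from a table was taken as 0. Genes seen in few cells may have been left out.

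Cells were log-normalized and clustered with Seurat 5.3.0 in R 4.3.3 (1976 variable genes, 27 principal components, resolution 0.8), leaving out the 7 genes, the pathway genes and sex-linked genes. Classes were named by the mean z score of fixed markers, and a cluster needed at least 3 detected ones. Scrublet (scanpy 1.11.5) called 5 doublets in each library, and they were kept. UMIs were summed per class, cluster and library and divided by all UMIs there. Poisson, Clopper-Pearson and conditional binomial intervals cover counting error only. The ratio intervals were run on counts simulated from a Poisson model. They assume that same model, so the run does not show how they cover UMIs concentrated in single cells. With 1 library per genotype no p-value was computed. The named genes are the 7, the pathway lists, the 3 genes most alike in profile and the nearest listed neighbors. The 7 genes, the lists and the markers were chosen with earlier results of these data known. Marker lists of other marrow cells gave summed levels of 15.1 CPM in Col1a1fspKO and 14.6 CPM in WT (macrophage), 121 and 83.0 (plasma cell), 11.4 and 11.2 (megakaryocyte), and 18.7 and 20.6 (conventional dendritic cell). Alternatives varied the clustering, filters, scaling, depth and weighting.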

Additional observations from a re-analysis of the deposited data

Results flagged for a closer look

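The ratio of Fcgr3 between Col1a1fspKO and WT went past 1.5-fold in opposite directions in 2 classes, at 1.86 in Neutrophil-like cells and 0.433 in Progenitor-like cells. With 1 library per genotype this difference was not tested. With the 4 neutrophil clusters weighted equally the neutrophil ratio was 1.43, under 1.5-fold, and inside the clusters it lay between 1.29 and 1.54. The ratio of Fcer1g likewise went both ways, at 1.58 in Erythrocytes-like cells and 0.595 in T/NK cells-like cells, and this difference was not tested either. In the erythroid cells the level rested in part on the few cells with over 50 S100a8 UMIs, which held 35 of 72 Fcer1g UMIs in Col1a1fspKO and 13 of 48 in WT. Without those cells the levels were 36.2 and 29.0 CPM, under 1.5-fold apart. In T/NK cells-like cells, thinning to 2500 UMIs per cell took the log2 ratio from -0.75 to -0.16, also under 1.5-fold.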

How the results depend on the processing

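Of the recomputed ratios, shares and class orders, 287 differed from the reported value by less than its counting interval and 13 by more. The ratios past 1.5-fold outside erythroid cells kept their sign in every setting run. In erythroid cells the levels were recomputed only without cells over 50 S100a8 UMIs, which left Tyrobp at 76.3 and 52.3 CPM and Fcer1g at 36.2 and 29.0 CPM in Col1a1fspKO and WT, both under 1.5-fold apart. With the neutrophil clusters weighted equally, a setting chosen after seeing the data, the log2 ratios were 0.51 for Fcgr3, -0.094 for Fcer1g and 0.028 for Tyrobp. At resolution 0.4 the log2 ratio of Fcgr3 in Eosino/Baso-like cells was -0.64, and no Progenitor-like class was left, so that result has no value. Thinning to 2500 UMIs gave log2 ratios of Fcer1g of -0.18 in Mono/Macro-like and -0.16 in T/NK cells-like cells. Naming single cells by marker score gave 0.10 for Fcer1g and 0.093 for Tyrobp in plasmacytoid cells, and 8 of 14 gene and library pairs kept their highest class. The shared UMI minimum gave 0.14 for Tyrobp in Neutrophil-like cells. Without cells over 50 S100a8 UMIs, also chosen after seeing the data, Tyrobp in T/NK cells-like cells was -0.036 and the Fcgr2b share of B cells-like cells 83.0% in Col1a1fspKO and 86.4% in WT. Over all settings the log2 ratio of Fcer1a in Eosino/Baso-like cells ranged from -2.75 to -1.68, that of Fcgr3 in Neutrophil-like cells from 0.51 to 0.99 and in Progenitor-like cells from -1.68 to -0.91, and that of Fcgr4 in Neutrophil-like cells from 0.40 to 0.97. Of the recomputed levels 749 stayed within the interval and 185 moved, 69 of them with CPM taken without the 20 most abundant genes, which made Neutrophil-like cells the highest class for Fcer1g. The causes were not tested. No paired analysis was possible because each genotype is 1 library.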
